A study of Mus musculus with 3 samples.

Results

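The macrophage and complement C1q genes examined here are C1qa, C1qb, C1qc, Csf1r, Cd68, Adgre1, Mrc1, Cd14, Cd163 and Lyz2. They were chosen by symbol, and all 10 were found among the 20937 gene symbols of the count table. All 10 also had enough counts to be among the 18702 genes tested. RNAseq was performed on the incisor enamel organ (EO), the epithelium that forms enamel, of male mice aged 4 weeks, with 1 library per genotype. The Stim1 cKO library came from Stim1 fl/fl mice with the AmelX-iCre transgene, the Stim1 HT library from Stim1 fl/wt mice with the transgene, and the Stim1 Ctrl library from Stim1 fl/fl mice without it. All of these mice therefore carried at least 1 floxed Stim1 allele, and the transgene was shared by Stim1 cKO and Stim1 HT. The transgene is active in ameloblasts, so deletion was not directed at macrophages. How many animals went into each library is not given in the sources used here. Each genotype thus has a single library without a replicate, and differences between mice of the same genotype cannot be measured.

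Macrophages are phagocytes that settle in nearly every tissue, where they clear dying cells and debris. Most depend on signals through CSF1R, the receptor for the cytokines CSF1 and IL-34. They are also a main source of C1q, the recognition protein of the classical complement pathway, which is assembled from the chains encoded by C1qa, C1qb and C1qc. Osteoclasts, which resorb the bone around the tooth, arise from the same myeloid lineage and need CSF1R as well. In the labels the cells are called ameloblasts, but the dissected tissue was the whole EO, and transcripts of blood and connective tissue cells can be present in it.

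Totals were between 20216507 and 28265960 counts per library. Expression levels are given as CPM, counts relative to library size after TMM scaling, and 3 counts, taken as the limit of detection, equalled between 0.117 and 0.152 CPM. The 95% intervals given for a level (exact Poisson), for a share (Wilson) and for a ratio of 2 libraries (exact binomial) cover counting error only. The targeted gene Stim1 was at 72.8 CPM in Stim1 cKO, against 129 in Stim1 HT and 186 in Stim1 Ctrl. Amelx, which encodes the enamel matrix protein amelogenin, was at 2065, 20016 and 14088 CPM in the same order, so the tissue's defining transcript was present in every library. Stim1 cKO was compared with Stim1 HT and Stim1 Ctrl as a group, as the study did, in edgeR, by the quasi-likelihood test, and p-values were adjusted over all genes tested by the Benjamini-Hochberg method. Genes with an adjusted p below 0.01 and a fold change above 2 were called. The edgeR test has 1 residual degree of freedom, which comes from how far apart the controls are, and these differ in genotype. The spread of each gene was moderated with that of the other genes tested, with 4.15 prior degrees of freedom. A p-value therefore does not measure the spread between mice of 1 genotype.

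C1qa, C1qb and C1qc lie next to each other on the minus strand of chromosome 4 (GRCm38), from 136895917 to 136898803, from 136880129 to 136886187 and from 136889804 to 136893065. The 250 bases before the RefSeq transcription start are shown for C1qb, Cd68, Mrc1 and Cd163. Apart from the C1q chains, Cd68, Mrc1 and Cd163 are the genes with an entry that were more than 2-fold lower in Stim1 cKO than in either control. Capitals mark GAGGAA, the core bound by the myeloid factor PU.1, and TGCTGA, a half-site of MAF factors, searched on both strands (GAGGAA on the other strand reads TTCCTC).
C1qb: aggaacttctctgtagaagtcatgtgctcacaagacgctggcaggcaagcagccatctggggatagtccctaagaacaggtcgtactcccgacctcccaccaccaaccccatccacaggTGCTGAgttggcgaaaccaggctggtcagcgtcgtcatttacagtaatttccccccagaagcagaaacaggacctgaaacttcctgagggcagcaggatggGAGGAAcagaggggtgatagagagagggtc
Cd68: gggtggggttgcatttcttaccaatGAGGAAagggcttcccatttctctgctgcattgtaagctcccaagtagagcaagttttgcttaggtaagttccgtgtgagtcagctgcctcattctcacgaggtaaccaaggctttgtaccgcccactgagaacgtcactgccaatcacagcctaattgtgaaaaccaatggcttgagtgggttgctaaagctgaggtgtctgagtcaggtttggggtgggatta
Mrc1: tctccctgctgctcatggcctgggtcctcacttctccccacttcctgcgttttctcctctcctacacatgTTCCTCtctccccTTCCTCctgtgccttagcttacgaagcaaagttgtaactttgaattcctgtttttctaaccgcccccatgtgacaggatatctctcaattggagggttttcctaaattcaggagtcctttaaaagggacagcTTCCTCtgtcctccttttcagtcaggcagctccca
Cd163: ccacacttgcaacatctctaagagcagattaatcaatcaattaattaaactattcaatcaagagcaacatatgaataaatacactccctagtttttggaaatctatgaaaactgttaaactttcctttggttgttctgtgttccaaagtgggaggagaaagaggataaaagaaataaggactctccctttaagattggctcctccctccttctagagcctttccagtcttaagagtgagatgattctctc
These windows are chr4:136886201-136886450 for C1qb and chr11:69666171-69666420 for Cd68, both on the minus strand, and chr2:14229164-14229413 for Mrc1 and chr6:124304401-124304650 for Cd163, both on the plus strand (GRCm38.p6). Each is written in the direction of its gene. GAGGAA begins 30 bases before the start of C1qb and 225 bases before that of Cd68, and its reverse complement begins 180, 167 and 35 bases before that of Mrc1. TGCTGA begins 131 bases before the start of C1qb. The window of Cd163 holds neither motif. Among all 32851 RefSeq promoter windows of this length, 23.3% hold GAGGAA and 16.1% hold TGCTGA on either strand, so a match on its own is common. Of the 10 genes, 6 had a promoter entry, the others of which are C1qc and Lyz2. The window of C1qc differs from that of C1qb. It holds the reverse complement of GAGGAA, which begins 193 bases before the start, and no TGCTGA. C1qa, Csf1r, Adgre1 and Cd14 are not shown.

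The 3 C1q chains, the receptor genes Csf1r, Adgre1, Mrc1 and Cd163 and the lysosomal gene Cd68, 8 of the 10 genes, were lower in Stim1 cKO than in either control (42.1% of all genes tested), and the lipopolysaccharide receptor gene Cd14 and the lysozyme gene Lyz2 were higher than in either (43.6%). The median log2 fold change of the 10 genes was -1.04, against -0.01 over all genes tested. A gap of more than 2-fold to each control was found in 5 genes that were lower, C1qc, Csf1r, Cd68, Mrc1 and Cd163, and in 1 that was higher, Cd14. The background was 8.23% of all genes lower and 19.1% higher by that measure. Stim1 HT lay between the other libraries, with Stim1 cKO lowest, in 6 of the 10 genes (25.4% of all genes) and with Stim1 cKO highest in 2 (26.3% of all genes). Between Stim1 HT and Stim1 Ctrl, 3 of the 10 genes were over 2-fold apart, Cd163, Cd14 and Lyz2, against 13.5% of all genes, and with RLE scaling 2 were.

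None of the 10 genes was called by edgeR, which called 0.0749% of the genes tested as higher and 0% as lower. At an unadjusted p under 0.05 by edgeR, 7 of the 10 were lower (13.4% of all genes) and 1 was higher (18.5%). An adjusted p under 0.05 with a fold change above 2 was reached by Csf1r and Cd68, both lower (2.88% of all genes), and by 0 that were higher (6.8%). DESeq2, the test the study used, called 5 of the 10 with the thresholds of 0.01 and 2-fold. Those were Csf1r (log2 fold change -1.52, standard error 0.35, adjusted p 0.00024), Mrc1 (-1.47, 0.44, 0.00733), Cd68 (-1.41, 0.43, 0.00906), Cd163 (-2.33, 0.67, 0.00494) and Cd14 (2.42, 0.67, 0.00329). Among all genes with an adjusted p in DESeq2, 5.1% were called lower and 6.42% higher. C1qc had an adjusted p of 0.0331 in DESeq2, and C1qa, C1qb, Adgre1 and Lyz2 had values between 0.156 and 0.366. Over all alternatives to the edgeR test, the adjusted p ranged from 0.00024 to 0.0484 for Csf1r, from 0.00906 to 0.0677 for Cd68, from 0.00733 to 0.0825 for Mrc1, from 0.00494 to 0.112 for Cd163 and from 0.00329 to 0.0614 for Cd14. It was between 0.0289 and 0.0929 for C1qc, and between 0.0749 and 0.407 for C1qa, C1qb, Adgre1 and Lyz2.

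The 3 C1q chains were lower in Stim1 cKO than in either control. C1qa was at 21.7 CPM in Stim1 cKO (95% interval 19.9 to 23.6), against 40.4 (37.6 to 43.3) in Stim1 HT and 35.6 in Stim1 Ctrl (33.3 to 38.0). C1qb was at 26.7 CPM (24.7 to 28.8), 47.1 CPM (44.1 to 50.2) and 42.6 CPM (40.1 to 45.1) in the same order. C1qc was at 17.6 CPM (16.0 to 19.4), 38.0 CPM (35.3 to 40.8) and 38.0 CPM (35.7 to 40.5). For each chain the interval of Stim1 cKO lay below those of the controls, and the controls differed by at most 1.13-fold. Summed over the chains, the log2 ratio was -0.93 to Stim1 HT (-1.02 to -0.83) and -0.82 to Stim1 Ctrl (-0.90 to -0.73), 2 ratios that share the Stim1 cKO library. Against the grouped controls, the log2 fold changes were -0.81 for C1qa, -0.75 for C1qb and -1.11 for C1qc, with adjusted p-values of 0.104, 0.115 and 0.0543 in edgeR's quasi-likelihood test. None of the 3 was called, and a smaller number of C1q-producing cells cannot be told apart from less C1q RNA per cell in such bulk libraries.

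**Figure D1:**
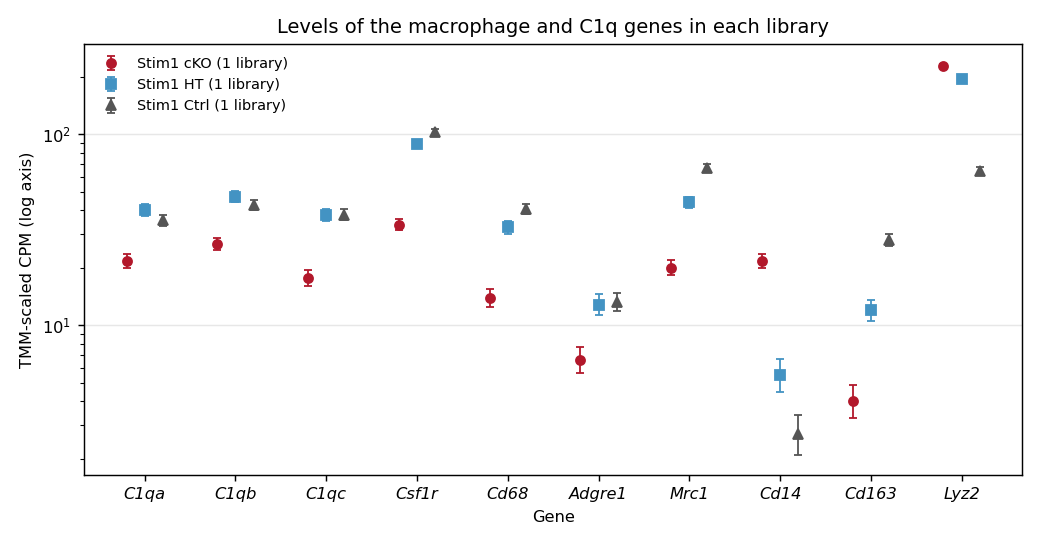
Expression level in TMM-scaled CPM (log axis) of each of the 10 genes in the Stim1 cKO, Stim1 HT and Stim1 Ctrl libraries, 1 library per genotype, with 95% exact Poisson intervals as bars. The Stim1 cKO point is the lowest for 8 genes, from C1qa to Mrc1 and Cd163, and the highest for Cd14 and Lyz2.

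The shares of the chains among all C1q counts of a library do not depend on scaling. C1qa made up 32.9% of the 1598 C1q counts in Stim1 cKO (95% interval 30.6 to 35.2), 32.2% of 2471 in Stim1 HT (30.4 to 34.0) and 30.6% of 2989 in Stim1 Ctrl (29.0 to 32.3). C1qb made up 40.4% (38.0 to 42.9), 37.6% (35.7 to 39.5) and 36.6% (34.9 to 38.4). The share of C1qc was 26.7% in Stim1 cKO (24.6 to 28.9), against 30.3% (28.5 to 32.1) in Stim1 HT and 32.7% in Stim1 Ctrl (31.1 to 34.4). The intervals of the 3 libraries overlapped for C1qa and C1qb, whereas those of C1qc in Stim1 cKO and Stim1 Ctrl did not. Adgre1, on chromosome 17 from 57358691 to 57483527, encodes the adhesion receptor by which mouse macrophages are commonly recognised. It kept close to C1q, at 10.01 counts per 100 C1q counts in Stim1 cKO (8.51 to 11.8), against 10.2 (8.997 to 11.7) in Stim1 HT and 11.4 in Stim1 Ctrl (10.2 to 12.8), and these intervals overlapped. Its level was 6.61 CPM in Stim1 cKO, against 12.8 in Stim1 HT and 13.3 in Stim1 Ctrl (log2 fold change -0.98, edgeR adjusted p 0.161).

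The receptor gene Csf1r was further below the controls than C1q was. Csf1r spans 61100598 to 61132149 on chromosome 18, and its counts were 816 in Stim1 cKO, against 1764 in Stim1 HT and 2646 in Stim1 Ctrl. Its level was 33.7 CPM in Stim1 cKO (95% interval 31.4 to 36.1), against 89.6 (85.4 to 93.8) in Stim1 HT and 103 in Stim1 Ctrl (98.9 to 107). Stim1 cKO was thus 2.66-fold below Stim1 HT and 3.05-fold below Stim1 Ctrl, while the controls lay 1.15-fold apart. For Csf1r, the edgeR log2 fold change was -1.51 and the adjusted p 0.0386, which missed the threshold. Per 100 C1q counts there were 51.1 counts of Csf1r in Stim1 cKO (46.9 to 55.6), against 71.4 (67.2 to 75.9) in Stim1 HT and 88.5 in Stim1 Ctrl (84.0 to 93.3), with no overlap between the intervals. An exon of Csf1r overlaps one of Hmgxb3 on the other strand in GENCODE M21, and whether counting used strand is not given in the sources used here. The labels name a SMARTER library kit and the methods of the study a directional NEBNext kit, which marks strand, so it is not known whether reads of Hmgxb3 could have been counted for Csf1r.

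Cd68, on chromosome 11 from 69664213 to 69666153, encodes a lysosomal glycoprotein of macrophages and osteoclasts. It was at 13.9 CPM in Stim1 cKO (12.4 to 15.5), against 32.6 (30.2 to 35.3) in Stim1 HT and 40.6 in Stim1 Ctrl (38.2 to 43.2). The log2 fold change of Cd68 was -1.40 (edgeR adjusted p 0.0469). Relative to 100 C1q counts, Cd68 had 21.03, 26.02 and 34.995 counts in Stim1 cKO, Stim1 HT and Stim1 Ctrl. Osteoclast markers were low together with these genes. All 10 genes of an osteoclast list were lower in Stim1 cKO than in either control (42.1% of all genes tested). Their median log2 fold change was -1.94. In edgeR 0 of them were called and 8 were lower at an unadjusted p under 0.05 (13.4% of all genes). DESeq2 called 3 of them as lower (5.1% of all genes with an adjusted p). Their summed level was 418 CPM in Stim1 cKO, against 1698 in Stim1 HT and 1968 in Stim1 Ctrl. Acp5, the tartrate-resistant acid phosphatase of osteoclasts, was at 86.5, 440 and 446 CPM, and Mmp9, a matrix-degrading protease, was at 89.5, 420 and 650 CPM. Dcstamp, needed for osteoclast fusion, was at 1.78, 7.61 and 9.37 CPM. The part of osteoclast transcripts in the levels of Csf1r and Cd68 was not tested.

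Against Stim1 Ctrl, Cd163 and Mrc1 had the widest gaps among the 8 genes that were low in Stim1 cKO. Mrc1, which encodes the mannose receptor CD206 on chromosome 2 between 14229392 and 14332057, was at 20.0 CPM in Stim1 cKO (18.3 to 21.9), against 44.0 (41.1 to 47.0) in Stim1 HT and 66.6 in Stim1 Ctrl (63.5 to 69.8). Cd163, which encodes the receptor that takes up haptoglobin-bound haemoglobin, lies on chromosome 6 from 124304656 to 124330527. Its counts were 97 in Stim1 cKO, against 236 in Stim1 HT and 719 in Stim1 Ctrl, equal to 4.01 CPM (3.25 to 4.89), 11.98 CPM (10.5 to 13.6) and 27.9 CPM (25.9 to 30.1). In both genes Stim1 HT lay between the other libraries, so the size of the gap depends on the control. Cd163 was 2.99-fold lower in Stim1 cKO than in Stim1 HT and 6.97-fold lower than in Stim1 Ctrl, and Stim1 HT was itself 2.33-fold below Stim1 Ctrl. The log2 fold changes were -1.47 for Mrc1 and -2.32 for Cd163, with adjusted p-values of 0.0624 and 0.0826 in edgeR's quasi-likelihood test. Cd163 had 6.07 counts per 100 C1q counts in Stim1 cKO (4.95 to 7.45), against 9.55 (8.36 to 10.9) in Stim1 HT and 24.1 in Stim1 Ctrl (22.2 to 26.1). For Mrc1 the corresponding values were 30.4, 35.1 and 57.3.

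**Figure D2:**
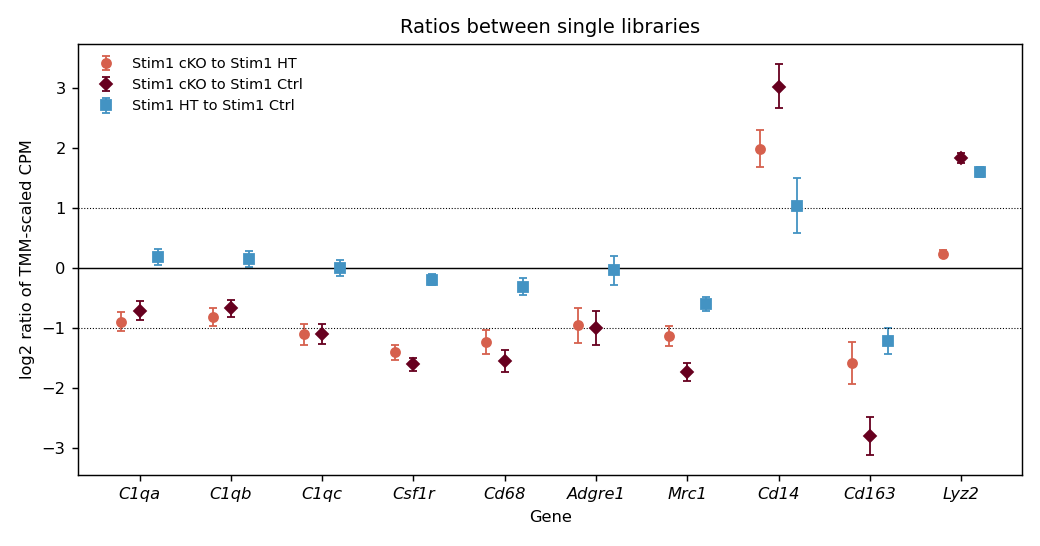
Log2 ratio of TMM-scaled CPM between each pair of libraries for the 10 genes, with 95% exact binomial intervals of counting error as bars and dotted lines at a 2-fold difference. For 5 genes, C1qc, Csf1r, Cd68, Mrc1 and Cd163, both ratios of Stim1 cKO lie below -1, and for Cd14 both lie above 1, while the ratio of Stim1 HT to Stim1 Ctrl lies outside these lines for Cd163, Cd14 and Lyz2.

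Cd14 and Lyz2 were higher in Stim1 cKO than in either control. Cd14, on chromosome 18 from 36725067 to 36726798, encodes the receptor that hands bacterial lipopolysaccharide to TLR4 on monocytes and macrophages. Its counts were 526 in Stim1 cKO, against 108 in Stim1 HT and 69 in Stim1 Ctrl, equal to 21.7 CPM (19.9 to 23.7), 5.48 CPM (4.50 to 6.62) and 2.68 CPM (2.09 to 3.39). Stim1 cKO was 3.96-fold above Stim1 HT and 8.10-fold above Stim1 Ctrl, and the controls differed 2.04-fold from each other. For Cd14, the edgeR log2 fold change was 2.42 and the adjusted p 0.0521. For each 100 C1q counts there were 32.9 counts of Cd14 in Stim1 cKO, against 4.37 in Stim1 HT and 2.31 in Stim1 Ctrl.

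Lyz2, on chromosome 10 from 117277331 to 117282321, encodes lysozyme M, an antibacterial enzyme of macrophages and neutrophils. It was at 229 CPM in Stim1 cKO (223 to 235), against 195 (189 to 201) in Stim1 HT and 64.6 in Stim1 Ctrl (61.5 to 67.8). Stim1 HT was here close to Stim1 cKO, with a log2 ratio of Stim1 cKO of 0.23 to Stim1 HT and 1.83 to Stim1 Ctrl. The log2 fold change of 0.82 had an adjusted p of 0.414 (edgeR). Lyz2 is uncertain, since its neighbour Lyz1 is a near-identical copy and reads could have been split between them. Lyz1 was at 3.43 CPM in Stim1 cKO, against 28.8 in Stim1 HT and 1.71 in Stim1 Ctrl. With Lyz1 added, the lysozyme level was 232, 224 and 66.3 CPM, and the log2 ratio of Stim1 cKO to Stim1 HT was 0.055.

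Neutrophils also make Lyz2. In a list of 12 neutrophil genes, 11 were tested, with a median log2 fold change of -2.44. In Stim1 cKO, 9 were lower than in either control (42.1% of all genes tested) and 1, Ltf, was higher (43.6%). In edgeR 0 were called, with 8 lower (13.4% of all genes) and 1 higher (18.5%) at an unadjusted p under 0.05. DESeq2 called 7 as lower (5.1% of all genes with an adjusted p). The granule protease gene Elane was at 0.578, 3.96 and 9.40 CPM in the Stim1 cKO, Stim1 HT and Stim1 Ctrl libraries, the myeloperoxidase gene Mpo at 2.02, 17.0 and 38.9 CPM, and Ngp at 3.84, 42.3 and 60.8 CPM. Ltf encodes lactoferrin, which neutrophils and glandular epithelia secrete. It was at 1441, 358 and 112 CPM in that order, and it made up most of the summed level of the list, which was 1512, 599 and 353 CPM. Ltf, Cd14 and Lyz2 were each highest in Stim1 cKO and lowest in Stim1 Ctrl, an order found in 26.3% of all genes tested. The part of other cells in the levels of Cd14 and Lyz2 was not tested.

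**Figure D3:**
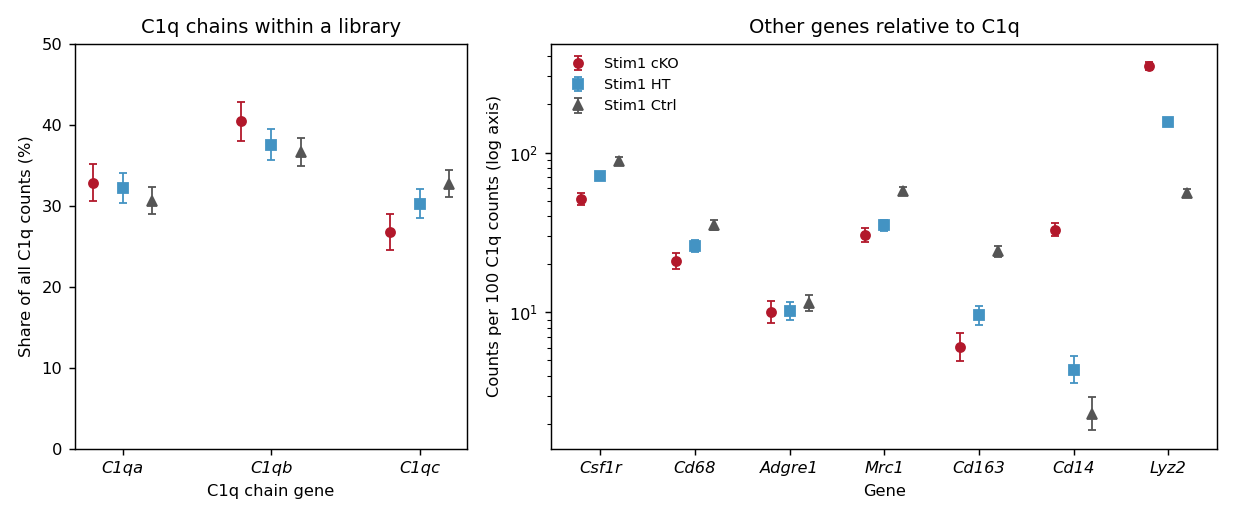
Left, share of each C1q chain among all C1q counts of a library (percent, 95% Wilson intervals). Right, counts of the other 7 genes per 100 C1q counts of the same library (log axis, 95% Wilson intervals), where Adgre1 is at 10.01 to 11.4 in the 3 libraries, Csf1r, Cd68, Mrc1 and Cd163 are lowest in Stim1 cKO, and Cd14 and Lyz2 are highest there.

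Compared per length, as CPM per kb of exon, Lyz2 was the most abundant of the 10 genes in each library, at 174 in Stim1 cKO, against 148 in Stim1 HT and 49.1 in Stim1 Ctrl. C1qb and C1qa followed, at 24.5 and 20.9 in Stim1 cKO, 43.3 and 38.8 in Stim1 HT, and 39.1 and 34.2 in Stim1 Ctrl. In Stim1 Ctrl the order went on with Cd68 (32.3), C1qc (19.7), Csf1r (17.8), Mrc1 (10.5), Cd163 (5.12), Adgre1 (4.09) and Cd14 (1.55). In that library the counting interval of C1qa overlapped that of Cd68, and so, barely, did those of C1qc and Csf1r, while the other neighbours did not overlap. In Stim1 HT, Cd68 (25.97) came before C1qc (19.7), Csf1r (15.5), Mrc1 (6.91), Adgre1 (3.97), Cd14 (3.17) and Cd163 (2.19), and the intervals overlapped for C1qb with C1qa and for Adgre1 with Cd14. In Stim1 cKO, Cd14 (12.5) came directly after C1qa, ahead of Cd68 (11.04), whose interval overlapped those of Cd14 and C1qc, and of C1qc (9.14), Csf1r (5.84), Mrc1 (3.14), Adgre1 (2.04) and Cd163 (0.734). The intervals of C1qb and C1qa also overlapped, barely, in Stim1 cKO. The place of a gene in these orders depends on the exon length used. The union of exons was 1931 bases for C1qc, against 1040 for C1qa and 1088 for C1qb. Which of these exons were transcribed was not tested.

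Other macrophage genes did not share one direction. Of 32 such genes, 15 were lower in Stim1 cKO than in either control (42.1% of all genes tested) and 11 higher (43.6%). Their median log2 fold change was -0.14. By edgeR 0 of them were called, with 6 lower (13.4% of all genes) and 5 higher (18.5%) at an unadjusted p under 0.05. DESeq2 called 1, Pf4, as lower (5.1% of all genes with an adjusted p). Pf4, a chemokine gene of resident macrophages and platelets, was at 8.59 CPM in Stim1 cKO, against 32.0 in Stim1 HT and 31.4 in Stim1 Ctrl (log2 fold change -1.88, edgeR adjusted p 0.0275). Folr2, a folate receptor gene of resident macrophages, was at 2.40, 8.12 and 5.01 CPM. Spi1, which encodes PU.1, was at 8.76, 19.5 and 19.6 CPM (log2 fold change -1.16, edgeR adjusted p 0.0878). Per 100 C1q counts Spi1 had 13.3 counts in Stim1 cKO (11.5 to 15.3), against 15.5 (14.0 to 17.3) in Stim1 HT and 16.9 in Stim1 Ctrl (15.4 to 18.6).

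Among the genes with larger values in Stim1 cKO was Gpnmb, which encodes a glycoprotein of phagocytes and osteoclasts, at 19.5 CPM in Stim1 cKO, against 4.16 in Stim1 HT and 6.37 in Stim1 Ctrl (log2 fold change 1.88, edgeR adjusted p 0.0587). Lgals3, which encodes galectin-3 and is also expressed in epithelia, was at 152, 87.3 and 60.7 CPM. Maf, a transcription factor gene of macrophages and of other cells such as lens, was at 453, 246 and 240 CPM. Ptprc encodes CD45, carried by all leukocytes, and was at 19.2, 14.2 and 9.44 CPM, or 29.1, 11.3 and 8.13 counts per 100 C1q counts. Aif1, which encodes the macrophage protein IBA1, was at 5.49, 7.16 and 2.91 CPM, with Stim1 cKO between the controls.

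**Figure D4:**
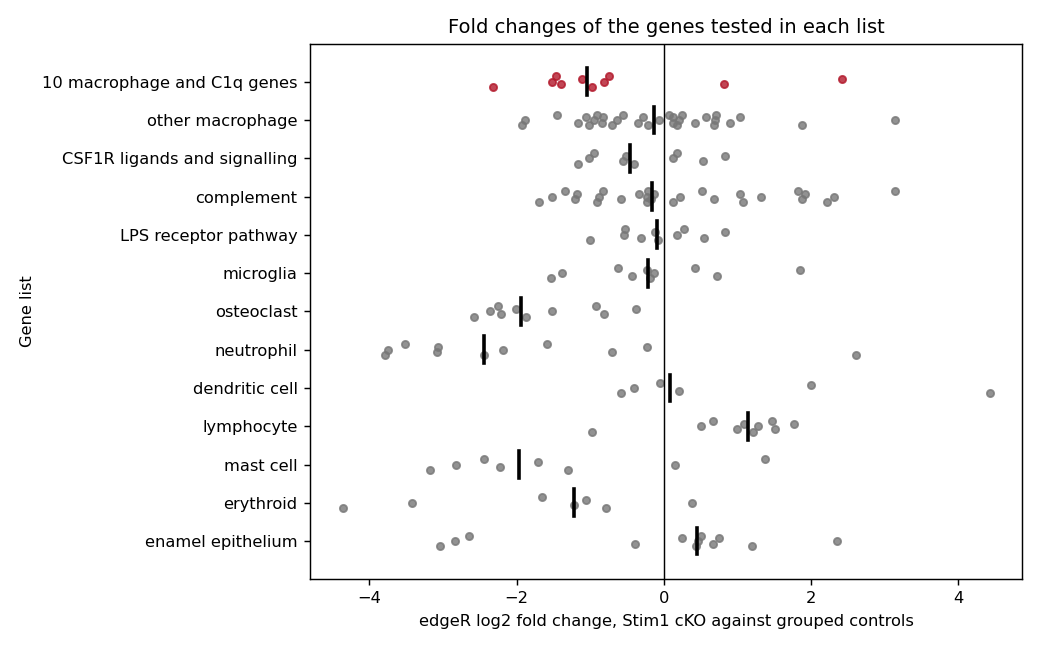
Log2 fold change of Stim1 cKO against the grouped controls (edgeR) for every gene tested in each list, 1 point per gene, with the median of the list as a black bar. The 10 macrophage and C1q genes (red) have a median of -1.04, the other macrophage genes one of -0.14, and the osteoclast, neutrophil and mast cell lists the lowest medians, at -1.94, -2.44 and -1.97.

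The ligands of CSF1R differed from each other. Csf1 was at 28.5 CPM in Stim1 cKO, against 44.1 in Stim1 HT and 70.6 in Stim1 Ctrl (log2 fold change -1.01, edgeR adjusted p 0.136). Il34, the second ligand, was at 5.49, 4.42 and 5.67 CPM, with Stim1 cKO between the controls. Tyrobp, an adaptor of myeloid receptors, was at 12.8, 30.9 and 18.4 CPM. Of the signalling genes with larger values in Stim1 cKO, Fyb was at 11.3, 5.89 and 6.72 CPM, Cbl at 14.3, 5.89 and 13.9 CPM, and Plcg2 at 13.9, 12.03 and 12.4 CPM. The list of 10 ligand and signalling genes shares Spi1 and Tyrobp with the macrophage list. In it, 6 were lower than in either control (42.1% of all genes tested) and 3 higher (43.6%). Their median log2 fold change was -0.46, and 0 were called by edgeR or DESeq2. At an unadjusted p under 0.05 in edgeR, 2 were lower (13.4% of all genes) and 0 higher (18.5%).

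Other complement genes did not share one direction. Of 30 such genes, 28 were tested, and their median log2 fold change was -0.16. In Stim1 cKO, 13 were lower than in either control (42.1% of all genes tested) and 12 higher (43.6%), near the shares over all genes. The proteases that form the C1 complex with C1q are encoded by C1ra and C1s1. C1ra was at 30.8 CPM in Stim1 cKO, against 24.9 in Stim1 HT and 28.1 in Stim1 Ctrl. C1s1 was at 61.8, 65.0 and 77.8 CPM. Downstream of C1, C4b was at 28.2, 7.67 and 7.66 CPM (log2 fold change 1.88, edgeR adjusted p 0.0332). C4b is closely related to C4a, and reads could have been split between them. C3, the central component of the cascade, was at 41.8, 22.7 and 16.9 CPM (log2 fold change 1.08, edgeR adjusted p 0.0754). Cd59a, an inhibitor of the membrane attack complex, was at 95.6, 57.2 and 36.0 CPM. Clu, which encodes the complement inhibitor clusterin, was at 495, 1782 and 1412 CPM (log2 fold change -1.69, edgeR adjusted p 0.0652). Cd93, first described as a C1q receptor and expressed by endothelium and myeloid cells, was at 45.0, 115 and 144 CPM (log2 fold change -1.52, edgeR adjusted p 0.0455). C5ar1, which encodes the receptor of C5a, was at 1.94, 2.74 and 7.07 CPM. By edgeR 0 of the complement genes were called, with 6 higher (18.5% of all genes) and 3 lower (13.4%) at an unadjusted p under 0.05. DESeq2 called 3, namely C4b as higher (6.42% of all genes with an adjusted p) and Clu and Cd93 as lower (5.1%).

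The partners of CD14 did not share its large difference. Tlr4, the signalling receptor, was at 10.4 CPM in Stim1 cKO, against 9.65 in Stim1 HT and 12.3 in Stim1 Ctrl. Ly96, which encodes its subunit MD-2, was at 3.51, 3.15 and 2.68 CPM. Lbp, which encodes the serum protein that carries lipopolysaccharide to CD14, was at 31.2, 18.2 and 16.8 CPM (log2 fold change 0.83, edgeR adjusted p 0.106). Among the adaptors, Tirap was at 24.3, 15.0 and 18.3 CPM and Ticam1 at 9.13, 16.8 and 19.7 CPM. The related receptor gene Tlr2 was at 6.36, 10.3 and 7.97 CPM and the shared adaptor gene Myd88 at 23.6, 27.5 and 30.8 CPM. Of the 10 genes of this pathway, 4 were higher (43.6% of all genes tested) and 4 lower (42.1%) than in either control. Their median log2 fold change was -0.10, and 0 were called by edgeR or DESeq2. At an unadjusted p under 0.05 in edgeR, 1 was higher (18.5% of all genes) and 1 lower (13.4%).

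C1q, Csf1r and Adgre1 are also expressed by microglia, the macrophages of nervous tissue. Of 10 microglia genes, 5 were lower (42.1% of all genes tested) and 3 higher (43.6%) in Stim1 cKO than in either control. Their median log2 fold change was -0.21, and their summed level was 246, 451 and 505 CPM in Stim1 cKO, Stim1 HT and Stim1 Ctrl. Most of that sum came from Tmem119, at 49.9, 130 and 157 CPM, and Olfml3, at 83.0, 191 and 244 CPM, both of which connective tissue cells also express. The defining microglia gene P2ry12 was at 2.64, 3.50 and 3.61 CPM, and Sall1, also expressed in other tissues, was at 9.01, 7.82 and 3.15 CPM. Cx3cr1, the fractalkine receptor gene of microglia and other macrophages, was at 19.04, 17.1 and 11.4 CPM. In edgeR 0 of the 10 were called, with 2 lower (13.4% of all genes) and 0 higher (18.5%) at an unadjusted p under 0.05. DESeq2 called Tmem119 and Olfml3 as lower (5.1% of all genes with an adjusted p). The part of microglia in these levels was not tested.

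The mean profile of the 3 C1q chains over the libraries was compared with that of other genes. Distances were Euclidean, in log2 CPM centred on each gene's mean over 3 libraries. The chains were left out of the ranking, and not all of them lay within 0.1 of their mean profile. Among 14977 genes whose mean reached 50 counts, 203 others lay within that distance. The nearest were Zbtb45, Pepd, B3galnt1, Dctd and Entpd3, at distances between 0.00118 and 0.0131. Adgre1 ranked 353rd by this measure, at 0.134, and the other genes of the family lay further away, from Cd68 at 0.511 and Csf1r at 0.553 to Cd14 at 2.84.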

How the data were processed

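RNAseq counts were analysed for 3 EO libraries, 1 per genotype. Reads of low quality were removed and the rest trimmed and aligned with STAR, and the authors deposited raw counts for each gene symbol, not normalized. FastQC, STAR and DESeq2 are also named in the submitters' processing notes. The versions, genome build, annotation, counting tool and strand setting are not given in the sources used here. Every listed gene has at least 1 count in each library.

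Counts were tested with edgeR 4.0.16 in R 4.3.3 (TMM factors, filterByExpr, quasi-likelihood test, Benjamini-Hochberg adjustment). The common dispersion was 0.106 and the prior degrees of freedom were 4.15. The alternatives were DESeq2 1.42.0 on the same genes, RLE, upper-quartile and library size scaling, no filter, a filter on means below 50 counts, a looser threshold on the adjusted p (under 0.05), and leaving out either control. The scripts were tested on simulated data. Pairs of libraries were compared as ratios of TMM-scaled CPM, without a test. CPM per kb used the union of exons in GENCODE M21 (GRCm38), also the source of gene positions, and promoter windows were taken from RefSeq (GRCm38.p6). Python 3.11.15, pandas 2.3.3, scipy 1.17.1 and matplotlib 3.10.9 were used.

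The 10 genes and all lists (other macrophage, CSF1R ligands and signalling, complement, lipopolysaccharide receptor pathway, microglia, osteoclast, neutrophil, dendritic cell, lymphocyte, mast cell, erythroid and enamel epithelium genes) were chosen with earlier results of these data known. Named from each list were up to 3 genes per direction with the largest edgeR log2 fold change, provided that their mean reached 50 counts, and defining genes (Aif1, Ptprc, Il34, C1ra, C1s1, Tlr4 and P2ry12). Stim1 and Amelx were named as checks, and also the 5 genes nearest to the C1q profile. Lyz1, Hba-a1, Hbb-bs, Hbb-bt and Dspp were named after their values were seen. Some selected genes are not reported here.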

Additional observations from a re-analysis of the deposited data

How the results depend on the processing

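Each of the 10 macrophage and C1q genes kept the direction of its log2 fold change under every alternative tried. Leaving out a control could not change it, since that gives the ratio to the other control, and each gene was below or above both. By edgeR's quasi-likelihood test 0 of the 10 were called, as under each other scaling and filter, while DESeq2 called 5 and an adjusted p under 0.05 gave 2. The 6 genes more than 2-fold from each control became 5 with upper-quartile and 4 with library size scaling, and the 3 that were so far apart between the controls became 2 with RLE scaling. The log2 fold change of Lyz2 was 1.83 without Stim1 HT and 0.23 without Stim1 Ctrl, and that of Cd163 was -2.80 and -1.58. Without either control no test was possible, since no residual degrees of freedom remain. No paired analysis was possible because each genotype has 1 library. Over all genes, 14 were called, all higher in Stim1 cKO. The number was 1987 with DESeq2 (1107 higher and 880 lower), 50 with RLE scaling, 138 with upper-quartile scaling (125 higher and 13 lower), 6 with library size scaling, 907 without a filter (687 higher and 220 lower), 6 when means below 50 counts were left out, and 1811 at an adjusted p under 0.05 (1272 higher and 539 lower). Of the genes of the other lists, edgeR called 0, DESeq2 29, the fit without a filter 9 and an adjusted p under 0.05 20. The cause of these shifts was not tested. Library size scaling moved the median log2 fold change of all genes to 0.25 and upper-quartile scaling to 0.12. Relative to that shift, the sign changes of C1s1 to 0.051 (library size) and of Tlr4 to 0.19 (library size) and 0.055 (upper-quartile) stayed below the median. Tlr4 was at 0.034 when means below 50 counts were left out, and it ranged from -0.24 without Stim1 HT to 0.11 without Stim1 Ctrl. Without Stim1 Ctrl and without Stim1 HT the values were -0.38 and 0.91 for Aif1, 0.31 and -0.046 for Il34, -3.07 and 1.002 for Lyz1, -0.12 and 0.63 for Irf8, 0.39 and -0.048 for Kit, and -0.067 and 1.05 for Hba-a2. Divided by exon length, the shares of C1qa, C1qb and C1qc were 38.3%, 45.0% and 16.8% in Stim1 cKO, 38.1%, 42.5% and 19.3% in Stim1 HT and 36.8%, 42.0% and 21.2% in Stim1 Ctrl. The share of C1qc stayed lowest in Stim1 cKO, but division by a fixed length could not change this. Its counts relative to either other chain were already lowest there. Depth limits Cd163, with 97 counts in Stim1 cKO, and Cd14, with 69 in Stim1 Ctrl, most among the 10 genes.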

Other observations

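The summed level of lymphocyte genes was lower in Stim1 Ctrl than in the libraries with the transgene. The 10 genes of the list summed to 31.0 CPM in Stim1 cKO, against 24.8 in Stim1 HT and 5.40 in Stim1 Ctrl. All 10 were more than 2-fold apart between Stim1 HT and Stim1 Ctrl, where 13.5% of all genes were. Their counts in the single Stim1 Ctrl library ranged from 2 to 50, so some were at or below the limit of 3 counts. The B cell genes Cd79a and Ms4a1 were at 6.98 and 4.999 CPM in Stim1 cKO, at 4.01 and 3.86 CPM in Stim1 HT and at 0.894 and 0.311 CPM in Stim1 Ctrl. By edgeR and by DESeq2 0 of the 10 were called, and at an unadjusted p under 0.05 in edgeR 0 were.

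Mast cell protease genes were far below the controls in Stim1 cKO. Cpa3 was at 4.38 CPM in Stim1 cKO, against 26.4 in Stim1 HT and 35.4 in Stim1 Ctrl, Cma1 at 8.51, 45.8 and 46.7 CPM, and Tpsb2 at 9.42, 37.4 and 50.9 CPM. Their log2 fold changes were -2.82, -2.44 and -2.23, with adjusted p-values of 0.0217, 0.0178 and 0.0261 in edgeR's quasi-likelihood test. Hdc, which makes histamine in mast cells and other cells, was higher, at 34.3, 18.9 and 7.66 CPM, and Kit, the stem cell factor receptor gene, was at 41.4, 31.7 and 42.8 CPM. Of the 8 genes of the list, 6 were lower than in either control and 1 higher. In the erythroid list 6 of the 7 genes tested were lower than in either control, with a median log2 fold change of -1.22. Slc4a1 and Alas2, made by red cell precursors, were at 12.1 and 23.05 CPM in Stim1 cKO, at 77.8 and 61.5 CPM in Stim1 HT and at 182 and 83.6 CPM in Stim1 Ctrl. The haemoglobin gene Hba-a2 was at 185, 193 and 88.9 CPM. Its near-identical copy Hba-a1 was at 290, 768 and 586 CPM, and reads could have been split between them. The other haemoglobin genes of the list, Hbb-bs and Hbb-bt, were at 465, 1005 and 597 CPM and at 78.7, 203 and 124 CPM. The 6 dendritic cell genes tested had a median of 0.08, with 2 higher and 1 lower than in either control. Among them Irf8 was at 10.8, 11.7 and 6.99 CPM and Zbtb46 at 9.25, 12.3 and 12.3 CPM. In the enamel epithelium list 7 of 12 were higher and 4 lower than in either control, with a median of 0.45. The 7 include Dspp, a dentin matrix gene and so not particular to this epithelium, at 1264, 792 and 792 CPM. The enamel matrix genes Ambn and Enam were at 1149 and 286 CPM in Stim1 cKO, at 9312 and 1722 CPM in Stim1 HT and at 7071 and 1856 CPM in Stim1 Ctrl. Odam, a gene of maturation-stage ameloblasts and junctional epithelium, was at 694, 196 and 75.1 CPM, Krt14 at 1192, 573 and 464 CPM, and Epcam at 112, 91.1 and 41.97 CPM. These 4 lists had 0 members called by edgeR, which at an unadjusted p under 0.05 had 4 mast cell genes lower and 1 higher, 5 erythroid genes lower, 2 dendritic cell genes higher, and 3 enamel epithelium genes lower and 2 higher. DESeq2 called 4 mast cell and 4 erythroid genes as lower, 0 dendritic cell genes, and 3 enamel epithelium genes as lower and 2 as higher. Over all genes tested, 42.1% were lower and 43.6% higher than in either control. At an unadjusted p under 0.05 in edgeR, 13.4% were lower and 18.5% higher. Of all genes with an adjusted p in DESeq2, 5.1% were called lower and 6.42% higher.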
